A study of Mus musculus with 8 samples.

Results

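FGF-ESC, lines derived from mouse inner cell mass in FGF2, were compared here with ESC, lines kept in the naive state by 2i and LIF. Of the 8 arrays of the study, 2 carried RNA of FGF-ESC and 2 RNA of ESC, and each of the 2 FGF-ESC arrays was also read on its own. Gene groups other than fibroblast markers are described, because those markers are high in FGF-ESC and unequal between its arrays.

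All embryos were wild-type C57BL/6J, and the lines came from blastocysts of embryonic day 3.5. FGF-ESC and EpiSC, the primed epiblast-type line used as a second reference, were both grown on mouse embryonic fibroblast feeders in KODMEM with 20% KSR and FGF2. ESC were grown without feeders in DMEM with 15% FCS, LIF and the 2 inhibitors of 2i, although the growth protocol of the labels leaves serum out. Inner cell mass of day 3.5, isolated by immunosurgery and not cultured, makes up the remaining 2 arrays. Between FGF-ESC and ESC the medium, the serum, the feeders and the line thus change together, and their parts cannot be told apart. The labels do not say whether the arrays of a group come from separate lines or cultures, so p-values measure the spread between these arrays, which may be technical. In bulk RNA, fewer cells of a type and less RNA per cell cannot be told apart.

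FGF2 activates the MEK and ERK kinases, which drive early response genes and their own feedback inhibitors. 2i blocks MEK and also blocks GSK3, the kinase that marks beta-catenin for degradation, so it lowers ERK output and raises WNT output. Interferon works through STAT and IRF factors on genes that carry a short GAAA-type element, and many pluripotent cells are known to respond to it weakly. Germline genes are held silent in most somatic cells by promoter methylation, a mark that 2i is known to reduce across the genome.

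Values are log2 hybridisation signals, so a difference of 1 is a change of 2-fold. After a filter on dim probe sets 13597 genes were tested and 8583 were not. A gene was said to rise or fall at a Benjamini-Hochberg adjusted p under 0.05 (limma, spread shared by all 8 arrays) and a log2 difference of at least 1. A call held on both arrays when each FGF-ESC array also lay at least 1 from the mean of the ESC arrays. Against ESC, 717 genes rose in FGF-ESC (5.27% of those tested) and 127 fell (0.934%). In 241 of the 717 rises the mean of ESC was below the filter level. On both arrays, 451 of the rises held (3.32% of the genes tested) and 79 of the falls (0.581%). Against EpiSC, 715 genes were higher in FGF-ESC (5.26%) and 275 were lower (2.02%). The median difference from ESC over all tested genes was -0.06. At an unadjusted p under 0.05 and with no fold minimum, 2101 genes were higher (15.5%) and 2121 lower (15.6%), against which unadjusted counts of the lists are to be read. The number that rose was 309 without ESC array 1 and 324 without ESC array 2. It was 483 without FGF-ESC array 1 and 1046 without FGF-ESC array 2.

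The FGF-ESC arrays were less alike than those of ESC. Their correlation over genes was 0.968 against 0.994, and 395 genes differed by at least 1 between them, compared with 0 in ESC. Among the 717 rises, array 1 was the higher in 661 with a median gap of 0.88 over all of them, and 125 agreed within 0.5. The 127 falls were closer, with 87 within 0.5. Over all tested genes, array 1 was above array 2 for 6330 of 13597. The 29 fibroblast markers on the array averaged 8.40 and 7.27 on FGF-ESC arrays 1 and 2, against 4.69 and 4.70 in ESC, with 5.20 and 5.42 in EpiSC. Of the 26 tested, 22 rose, with a median of 4.0 on array 1 and 2.46 on array 2. Their part in the results that follow was not tested. Without the fibroblast list 695 rises remained, with array 1 the higher in 639, so the tilt was not limited to the listed markers. Mesenchymal genes outside that list, such as Cdh11, remain among the 695. The count therefore cannot separate the tilt from fibroblast content.

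**Figure D1:**
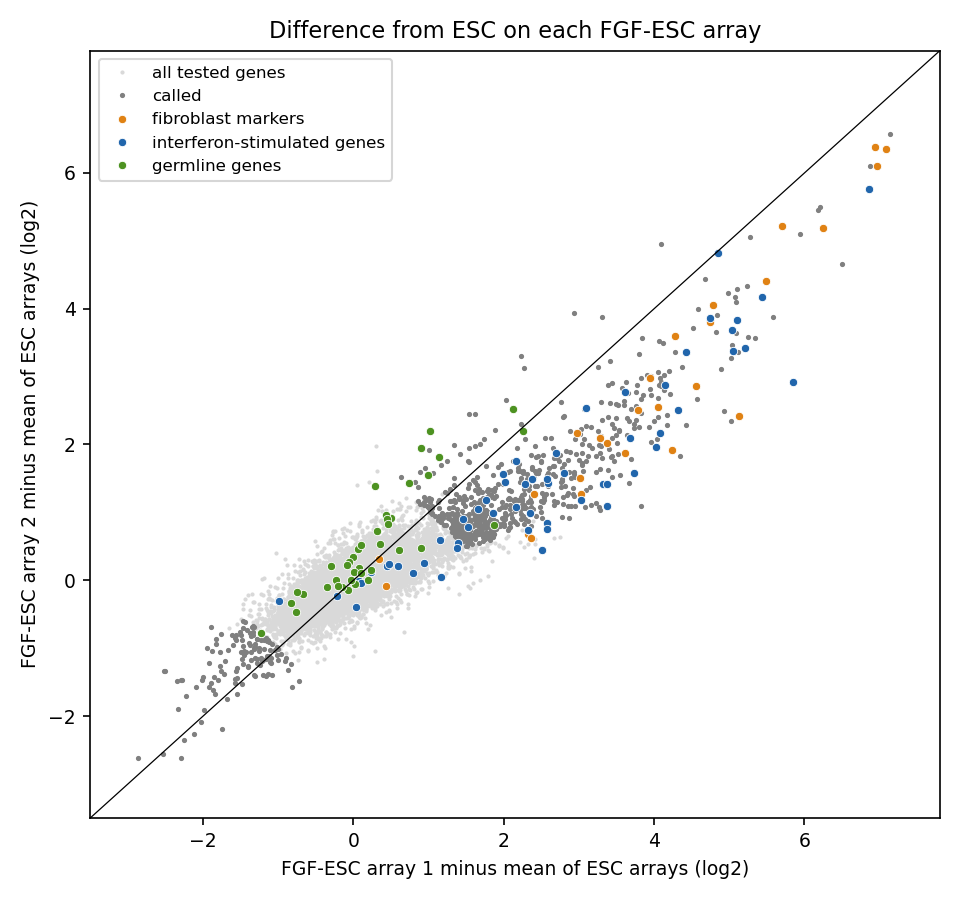
Difference from the mean of ESC (log2) on FGF-ESC array 1 (x axis) and array 2 (y axis), one point per tested gene, with called genes and lists marked as in the legend. Most genes that rose lie below the diagonal, with array 1 the higher in 661 of 717, while fibroblast markers reach medians of 4.0 and 2.46.

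**Figure D2:**
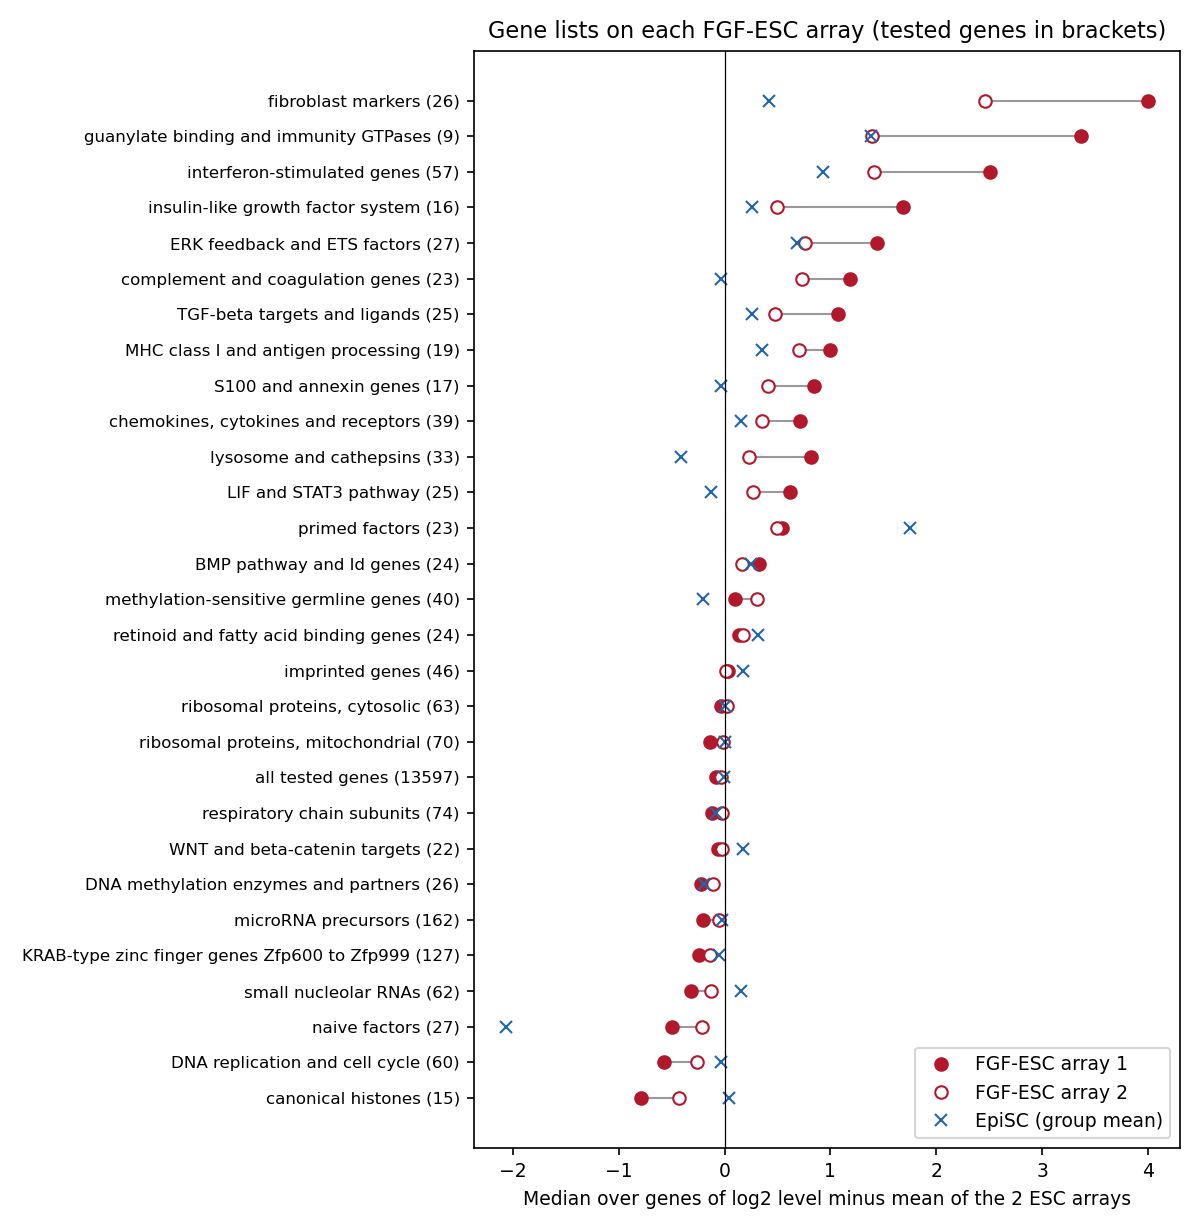
Median log2 difference from ESC of the tested members of each described list, shown separately for FGF-ESC array 1 and array 2, with EpiSC minus ESC beside them. After the fibroblast markers, immunity GTPases and interferon-stimulated genes, which share members, lie farthest above 0. Cell cycle genes and histones lie below 0. Germline genes are higher on array 2, as are naive factors, cell cycle genes and histones.

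Interferon-stimulated genes, the antiviral effectors and sensors switched on by interferon, rose in most members. Of 57 tested, 41 rose and 0 fell (limma; at an unadjusted p under 0.05, 48 were higher and 1 lower), and 34 held on both arrays. Their median difference was 1.85, with 2.50 on array 1 and 1.42 on array 2, against -0.06 over all tested genes. EpiSC, which share the medium and feeders, had a median of 0.93 above ESC. Against EpiSC directly, 16 of the 57 were higher in FGF-ESC. Array 1 was the higher for 56 of 57 members. The count that rose was 33 without FGF-ESC array 1 and 46 without array 2. It was 21 without ESC array 1 and 22 without ESC array 2.

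The members with the smallest p included one that did not share the tilt between arrays. Ifi27, a mitochondrial and nuclear membrane protein, read 8.21 and 8.18 on arrays 1 and 2 of FGF-ESC, against 3.11 and 3.60 in ESC, with 6.97 and 6.78 in EpiSC. Both FGF-ESC arrays were thus equally high and far from ESC, with a rise of 4.84 ± 0.17 (limma SE, n = 2 arrays a group, adjusted p = 5.43e-06). Ifi27 was also above EpiSC, by 1.32 (adjusted p = 0.00151). Every SE given here rests on a spread shared by all 4 groups. The residual SD was 0.279 in FGF-ESC and 0.124 in ESC. The SE therefore understates the spread of FGF-ESC where its 2 arrays are far apart. Oas1g, one of the synthetases that make 2-5A in response to double-stranded RNA, read 6.61 and 6.05 in FGF-ESC against 3.58 and 3.44 in ESC, with 5.04 and 4.96 in EpiSC, a rise of 2.81 ± 0.21 (adjusted p = 0.000174). Its levels stepped up from ESC to EpiSC to FGF-ESC without overlap, and FGF-ESC exceeded EpiSC by 1.33 (adjusted p = 0.00347). Oas1g belongs to a family of close copies, so its probes may read relatives.

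Other members read close to EpiSC. Rtp4, a chaperone of receptor transport, rose by 4.80 ± 0.35 (adjusted p = 0.000174), from 3.30 and 3.37 in ESC to 8.77 and 7.51 in FGF-ESC. EpiSC read 8.42 and 7.98, and the difference between the lines was -0.06 (adjusted p = 0.937). Isg15, a ubiquitin-like modifier, read 9.75 and 7.96 in FGF-ESC against 4.37 and 4.72 in ESC, with 8.85 and 8.58 in EpiSC. Its FGF-ESC arrays lay on either side of the EpiSC values, with a rise over ESC of 4.31 ± 0.48 (adjusted p = 0.00125). Bst2, the tetherin that holds budding virus at the cell surface, was already bright in ESC at 8.47 and 8.49 and read 10.64 and 10.24 in FGF-ESC, a rise of 1.96 ± 0.26 (adjusted p = 0.00268). Ifnb1, which encodes interferon beta, read 4.33 and 3.17 in FGF-ESC against 2.79 and 2.83 in ESC and was too dim to test.

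The guanylate binding proteins and immunity-related GTPases, which attack the membranes around intracellular microbes, rose in 7 of 9 tested members, each time on both arrays. Irgm1, Irgm2, Igtp, Iigp1 and several Gbp genes are also on the interferon list, so this group partly counts the same genes again. The median was 2.23 (3.37 and 1.39 on arrays 1 and 2) against 1.39 in EpiSC. Irgm1, which regulates the other GTPases of the family, read 8.13 and 7.07 in FGF-ESC against 3.49 and 3.93 in ESC, with 8.06 and 8.03 in EpiSC. It rose by 3.89 ± 0.32 (adjusted p = 0.000305). Igtp rose by 4.21 ± 0.43 (adjusted p = 0.000858), at 9.09 and 7.42 against 3.93 and 4.17 in ESC, with 8.02 and 7.79 in EpiSC. Neither passed the test between FGF-ESC and EpiSC, with differences of -0.45 (adjusted p = 0.383) and 0.35 (adjusted p = 0.632). Iigp1 was the exception. It read 8.87 and 5.94 in FGF-ESC against 3.03 and 3.0 in ESC and only 3.69 and 3.60 in EpiSC, with a rise of 4.39 ± 0.73 (adjusted p = 0.00733). The arrays of FGF-ESC were far apart here, and the call was lost without ESC array 1 (adjusted p = 0.0709) or array 2 (adjusted p = 0.0647). Without ESC array 1 or 2 only 2 of the 9 GTPases passed the test, as against 6 without FGF-ESC array 1.

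**Figure D3:**
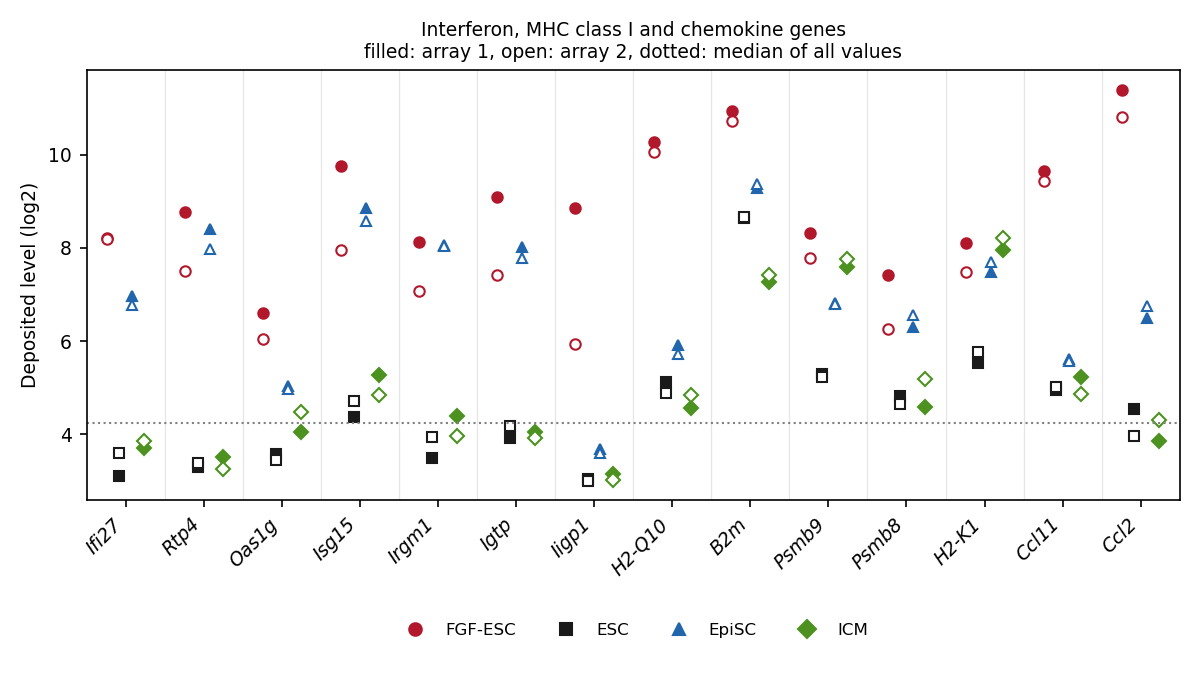
Log2 signal of named interferon-stimulated, GTPase, MHC class I and chemokine genes on each array of FGF-ESC, ESC and EpiSC, one point per array. FGF-ESC arrays of Ifi27 and H2-Q10 lie together and above EpiSC, whereas those of Isg15, Igtp and Iigp1 are spread and array 1 is the higher.

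The promoters of these genes were read for the interferon response core GAAANNGAA on both strands in the 250 bases before the start, in RefSeq sequence of GRCm38.p6. It was found in 18 of 45 interferon-stimulated genes with a promoter entry, against 7.02% of 10611 tested genes with one. Of these 45, the core was present in 14 of 30 that rose and in 4 of 15 that did not. Among MHC class I and antigen processing genes it was found in 3 of 17, all 3 of which rose. Among chemokines, cytokines and receptors it was found in 2 of 12 that rose and in 3 of 16 that did not. A match describes letters only and does not show that a factor binds. The 6 genes that carry the core and have the smallest adjusted p are shown, chosen after their values were seen, since they show how the element sits singly or in overlapping tandem. Each stretch reads 5′ to 3′ on the gene's strand, with 25 bases kept on each side where the window allows and the matched core in capitals.
B2m, chr2:122147523-122147581, plus strand: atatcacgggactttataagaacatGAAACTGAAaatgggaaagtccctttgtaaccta
Oas1g, chr5:120887614-120887656, minus strand: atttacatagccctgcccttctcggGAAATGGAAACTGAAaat
Irgm1, chr11:48871421-48871475, minus strand: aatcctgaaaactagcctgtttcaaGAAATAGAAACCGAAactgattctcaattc
Igtp, chr11:58199497-58199555, plus strand: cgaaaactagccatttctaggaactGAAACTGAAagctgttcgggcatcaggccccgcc
Isg15, chr4:156200851-156200921, minus strand: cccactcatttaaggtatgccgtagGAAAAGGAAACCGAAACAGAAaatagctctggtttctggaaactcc
Bst2, chr8:71537563-71537627, minus strand: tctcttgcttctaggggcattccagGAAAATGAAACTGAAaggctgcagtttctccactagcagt
B2m and Igtp hold 1 match, Oas1g, Irgm1 and Bst2 hold 2 overlapping ones, and Isg15 holds 3 in a row. The core lay 139 bases before the start in B2m and 34 in Igtp.

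MHC class I and antigen processing genes, which cut proteins and show the peptides at the surface, rose in part. Of 19 tested, 9 rose and 0 fell (limma; 13 higher and 0 lower at an unadjusted p under 0.05), 7 of them on both arrays. The median was 0.74 (0.99 and 0.70 on arrays 1 and 2) against 0.36 in EpiSC. Several members were nearly equal on the FGF-ESC arrays and higher than in EpiSC. B2m, the invariant light chain of class I molecules, read 10.94 and 10.73 in FGF-ESC against 8.65 and 8.66 in ESC, with 9.29 and 9.38 in EpiSC, a rise of 2.18 ± 0.13 (adjusted p = 4.92e-05). The groups did not overlap, and FGF-ESC exceeded EpiSC by 1.5 (adjusted p = 0.000202). H2-Q10, a secreted class I heavy chain, read 10.28 and 10.06, against 5.12 and 4.89 in ESC, with 5.91 and 5.72 in EpiSC, a rise of 5.17 ± 0.16 (adjusted p = 5.43e-06). The H2 genes are close copies and their probes may read one another. H2-K1, a classical heavy chain, rose by 2.15 ± 0.21 but differed from EpiSC by only 0.20 (adjusted p = 0.579).

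The loading machinery was uneven. Psmb9, a catalytic subunit of the immunoproteasome, read 8.32 and 7.77 in FGF-ESC against 5.29 and 5.22 in ESC, with 6.81 and 6.80 in EpiSC, a rise of 2.79 ± 0.18 (adjusted p = 8.01e-05). Psmb8, its partner, rose by 2.11 ± 0.35 (adjusted p = 0.00698), a call lost without ESC array 1 (adjusted p = 0.0615) or array 2 (adjusted p = 0.0688). These were the only rises among 40 proteasome subunits. The third immunoproteasome subunit, Psmb10, lay 0.74 above ESC and the activator Psme1 0.66 above it, and neither passed. The chaperones Canx (0.11) and Calr (-0.13) were close to ESC. Without ESC array 1 or array 2, 5 of the 19 genes rose.

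Chemokines, cytokines and their receptors rose in 18 of 39 tested members, each time on both arrays, and fell in 1. The median was 0.51 (0.72 and 0.36). Directly against EpiSC 19 were higher and 2 lower. Ccl11, the eosinophil attractant eotaxin, read 9.66 and 9.43 in FGF-ESC against 4.95 and 5.02 in ESC, with 5.61 and 5.56 in EpiSC. The FGF-ESC arrays agreed closely and stood apart from both lines, with a rise of 4.56 ± 0.15 (adjusted p = 5.43e-06) and 3.96 above EpiSC. Ccl2, a monocyte attractant, read 11.40 and 10.82 against 4.54 and 3.97 in ESC and rose by 6.85 ± 0.26. Ccl8 (5.85) and Ccl7 (5.52), which lie beside Ccl2 in one chemokine gene cluster, rose as well. The receptor Il1r1, through which interleukin 1 signals, read 8.12 and 7.50 in FGF-ESC and 4.02 and 3.99 in ESC, a rise of 3.80 ± 0.20. Fibroblasts are known sources of these chemokines, and the markers of fibroblasts rose on the same arrays (medians 4.0 and 2.46). Whether fibroblasts contributed to the chemokine signal was not tested. Without an ESC array, 12 (without array 1) and 13 (without array 2) of the 39 rose.

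Complement and coagulation genes had a median of 0.91 (1.18 and 0.73), with 11 of 23 rising and 0 falling (limma; 14 higher and 1 lower at an unadjusted p under 0.05). EpiSC had a median of -0.03. Tfpi, the inhibitor of tissue factor, was slightly higher on array 2, at 6.07 and 6.24 against 5.06 and 5.01 in ESC, a rise of 1.12 ± 0.14 (adjusted p = 0.00201). Serpinf1 (2.86 ± 0.33) and Pros1 (3.03 ± 0.40), a cofactor of activated protein C, rose with array 1 the higher. Of the 23 genes, 3 rose without ESC array 1, 5 without ESC array 2 and 14 without FGF-ESC array 2.

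ERK-responsive genes rose in part. Of 27 ERK feedback inhibitors, early response genes and ETS factors, 13 rose and 0 fell (limma; 21 higher and 1 lower at an unadjusted p under 0.05), 8 of them on both arrays. The median was 0.95 (1.44 and 0.76) against 0.68 in EpiSC. Dusp6, the phosphatase that inactivates ERK and a close read-out of its activity, read 9.18 and 9.06 in FGF-ESC against 7.50 and 7.57 in ESC, with 9.75 and 9.65 in EpiSC. On this brightest probe set arrays agreed within each group and FGF-ESC lay between the other lines, with a rise of 1.59 ± 0.12 (limma, adjusted p = 0.000174). Against EpiSC the difference was -0.58 (adjusted p = 0.0104), short of the fold minimum. A second Dusp6 probe set gave 2.52 over ESC, at 8.73 and 8.02 in FGF-ESC, with 9.70 and 9.72 in EpiSC. There the FGF-ESC arrays were less alike and lay farther below EpiSC. Egr1, an early response factor, read 10.06 and 9.37 against 6.39 and 6.50 in ESC, a rise of 3.27 ± 0.23.

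Elk3, an ETS factor, rose by 2.13 ± 0.21, at 8.25 and 7.52 against 5.71 and 5.80. Fos (2.36 ± 0.23), the AP-1 subunit, also held on both arrays. The Sprouty feedback inhibitors gave smaller differences. Spry4, a Sprouty inhibitor of receptor signalling, rose by 1.37, but lost its call without FGF-ESC array 1 and without either ESC array (adjusted p = 0.0674 and 0.0581). Spry2 (0.79) and the ETS factor Etv5 (0.39) did not pass. Over the ERK list, 17 rose without FGF-ESC array 2 and 8 without FGF-ESC array 1 or either ESC array.

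Among 20 FGF ligands and receptors 2 rose. Fgf7, a ligand made by mesenchyme for epithelial receptors, read 7.60 and 6.71 in FGF-ESC and 4.01 and 3.89 in ESC, a rise of 3.21 ± 0.25, and Flrt2, a membrane partner of FGF receptors, rose by 3.12 ± 0.26. The receptor Fgfr1 lay 0.81 above ESC and did not pass. Fgf5, the ligand that marks primed epiblast, lay 0.22 above ESC, and its difference from EpiSC was -2.59 (adjusted p = 6.51e-05). Fgf4, the ligand of the naive epiblast, was 0.20 below ESC, at 7.57 and 8.14 against 8.06 and 8.04, and did not pass (adjusted p = 0.597).

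The insulin-like growth factor system, in which binding proteins hold the ligands, had 7 of 16 rises, all on both arrays, with a median of 1.16 (1.69 and 0.49). Igfbp7 read 9.57 and 8.69 in FGF-ESC and 5.91 and 5.42 in ESC, a rise of 3.46 ± 0.28. The ligand Igf2 read 6.62 and 6.05 against 4.91 and 4.68 and rose by 1.54 ± 0.20. Igfbp3 was high in both FGF2-grown lines: 7.51 and 6.54 in FGF-ESC, 7.40 and 7.87 in EpiSC, and 4.86 on both ESC arrays. Without ESC array 1 or 2, 5 and 4 members rose.

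TGF-beta targets and ligands gave 9 rises of 25 and a median of 0.82 (1.07 and 0.48). Thbs1, a matrix protein that releases TGF-beta from its latent form, rose by 4.37 ± 0.44. Ccn1, a matricellular target shared with YAP, read 9.44 and 8.26, against 5.69 and 5.67 in ESC, with 8.28 and 8.92 in EpiSC, a rise of 3.17 ± 0.36. Its FGF-ESC and EpiSC values overlapped. Only 2 TGF-beta genes rose without ESC array 1 or 2, against 14 without FGF-ESC array 2.

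BMP pathway genes gave 5 rises and 1 fall among 24, with a median of 0.27 (0.32 and 0.16). Bmp4, a BMP ligand, read 6.22 and 5.63 in FGF-ESC and 4.44 and 4.32 in ESC, a rise of 1.54 ± 0.20. Gdf3, a TGF-beta family ligand of pluripotent cells, moved the other way, at 6.61 and 6.79 against 7.91 and 7.70 and fell by 1.10 ± 0.16. That call was lost without ESC array 1 (-0.99, adjusted p = 0.0527). The direct BMP target Id1 lay 0.31 below ESC and did not pass. The number that rose was 2 without ESC array 1 or 2 and 3 without FGF-ESC array 1.

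LIF and STAT3 pathway genes gave 6 rises and 1 fall among 25, 3 of the rises on both arrays, with a median of 0.43 (0.62 and 0.26). Ly6e, a surface protein, read 10.06 and 9.25 against 7.44 and 7.30 in ESC and rose by 2.29 ± 0.23. Osmr, the oncostatin M receptor, rose by 3.23 but not without ESC array 1 (adjusted p = 0.0525). Socs3, the direct feedback target of STAT3, lay 0.36 below ESC and the shared receptor subunit Il6st 0.83 above it, neither passing. Against EpiSC, 12 of the 25 were higher. The rises numbered 2 without ESC array 1 or 2 and 3 without FGF-ESC array 1.

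WNT targets did not move together, as 3 of 22 rose and 1 fell, with a median of -0.09. Axin2, a feedback inhibitor and direct beta-catenin target, read 5.37 and 5.09 in FGF-ESC and 6.22 and 6.33 in ESC and fell by 1.05 ± 0.14 (adjusted p = 0.00301). Its call was lost below the fold minimum without FGF-ESC array 2 (-0.91) and without ESC array 2 (-0.99), and a second probe set gave -0.63. Lef1, a DNA partner of beta-catenin, did the opposite: 5.52 and 6.05 in FGF-ESC against 4.39 and 4.32 in ESC, with 7.02 and 7.09 in EpiSC. It rose by 1.43 ± 0.17 (adjusted p = 0.00175) and stayed 1.27 below EpiSC. Sp5 (-0.21) and Cdx1 (-0.31), targets raised by GSK3 inhibition, did not pass. Myc and Ccnd1, the other rises, lost their calls without FGF-ESC array 1 and without either ESC array, leaving 1 rise in each case. Ccnd2, the cyclin D2 gene, which is not on the WNT target list, read 8.97 and 7.8 in FGF-ESC against 4.14 and 4.15 in ESC, with 7.48 and 7.09 in EpiSC, a rise of 4.24 ± 0.32 (adjusted p = 0.000203).

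Naive factors had a median of -0.31 (-0.50 and -0.21 on arrays 1 and 2), with 5 of 27 falling. EpiSC had a median of -2.06 against ESC, and 21 of the 27 were higher in FGF-ESC than in EpiSC. Klf4, a core naive factor, gave a difference of -0.07 from ESC (adjusted p = 0.752) and was 3.83 above EpiSC (adjusted p = 1.45e-05). Nanog read 8.65 and 9.37 against 10.002 and 9.97 in ESC, and its difference of -0.98 (adjusted p = 0.0193) did not reach the fold minimum. Tbx3, which helps sustain naive cells, agreed between arrays at 7.32 and 7.33 in FGF-ESC against 8.50 and 8.39 in ESC, with 4.09 and 4.39 in EpiSC, and fell by 1.12 ± 0.14 (adjusted p = 0.00215). It was 3.08 above EpiSC. Tcl1, an AKT coactivator, read 4.61 and 5.45 against 7.02 and 6.80 and fell by 1.88 ± 0.26 (adjusted p = 0.00351), narrowly missing without ESC array 1 (adjusted p = 0.0504). The falls numbered 2 without ESC array 1 and 3 without ESC array 2.

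Primed factors gave 4 rises of 23, with a median of 0.35 (0.55 and 0.50) against 1.75 in EpiSC, and in FGF-ESC 10 of them lay lower than in EpiSC. Tcf15, a factor of cells leaving the naive state, was high in both FGF2-grown lines, reading 7.04 and 7.67 in FGF-ESC against 4.81 and 5.22 in ESC, with 6.59 and 6.63 in EpiSC, a rise of 2.34 ± 0.22 (adjusted p = 0.000514). Pou3f1, a POU factor of the primed epiblast, sat between the lines at 5.80 and 5.63 against 4.14 and 4.66 in ESC, with 7.43 and 7.35 in EpiSC. It rose by 1.31 ± 0.18 and differed from EpiSC by -1.68. Sox4 rose by 2.02 ± 0.27. Without FGF-ESC array 2, 7 of the 23 rose and 1 fell.

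Germline genes were mostly higher on array 2. The list holds genes known to be silenced by promoter methylation, of which 63 were on the array and 40 passed the filter. Of these 40, 8 rose and 0 fell (limma, with 16 higher and 4 lower at an unadjusted p under 0.05), and 4 rises held on both arrays. Members bright in FGF-ESC only could enter the test but could not fall. Array 1 was the higher for only 8 of 40, and the median was 0.10 on array 1 and 0.31 on array 2, opposite to the fibroblast markers. That tilt was not particular to germline genes. Array 2 was also the higher for 25 of 27 naive factors, 53 of 60 cell cycle genes and 13 of 15 histones, against 7265 of all 13597 tested genes. Against EpiSC 14 were higher and 1 lower. Rhox5, an X-linked homeobox gene of the testis and placenta, read 7.30 and 7.24 in FGF-ESC against 5.13 and 4.96 in ESC, with 5.33 and 5.40 in EpiSC. Its arrays agreed and stood clear of both lines, with a rise of 2.22 ± 0.14 (adjusted p = 8.44e-05) and 1.91 above EpiSC (adjusted p = 0.000118). Sycp1, the transverse filament of the synaptonemal complex in meiosis, read 5.36 and 5.76, against 3.30 and 3.18 in ESC, with 2.99 and 3.16 in EpiSC, a rise of 2.32 ± 0.19 (adjusted p = 0.000292). Fthl17b, an X-linked ferritin-like gene with close copies, read 6.44 and 7.10 against 5.32 and 5.27, a rise of 1.48 ± 0.20 (adjusted p = 0.00314).

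The remaining rises of the germline list were less firm. Stra8, which starts meiosis in response to retinoic acid, read 4.62 and 5.81 against 3.71 and 3.49 and rose by 1.61 ± 0.32, but not without ESC array 1 or 2 (adjusted p = 0.0862 and 0.11). Rnf17, a tudor protein of male germ cells, was on in ESC at 6.43 and 6.38 and read 7.14 and 7.83 in FGF-ESC, against 3.71 and 3.48 in EpiSC. It was thus 3.89 above EpiSC, whereas its rise over ESC of 1.08 was lost without FGF-ESC array 2 and without either ESC array. Hormad1, Sohlh2 and Cpxm1 also lost their calls without single arrays. Dazl (0.71) and Ddx4 (0.70), which mark later germ cells, lay above ESC below the fold minimum. The germline count that rose was 3 without ESC array 1 or 2, 8 without FGF-ESC array 1 and 5 without FGF-ESC array 2. The E-box CACGTG, searched on both strands, was found in 10 of 35 germline promoters of 250 bases, against 9.55% of tested genes. It was present in 2 of the 7 that rose and had an entry, and in 8 of the 28 that did not rise.

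**Figure D4:**
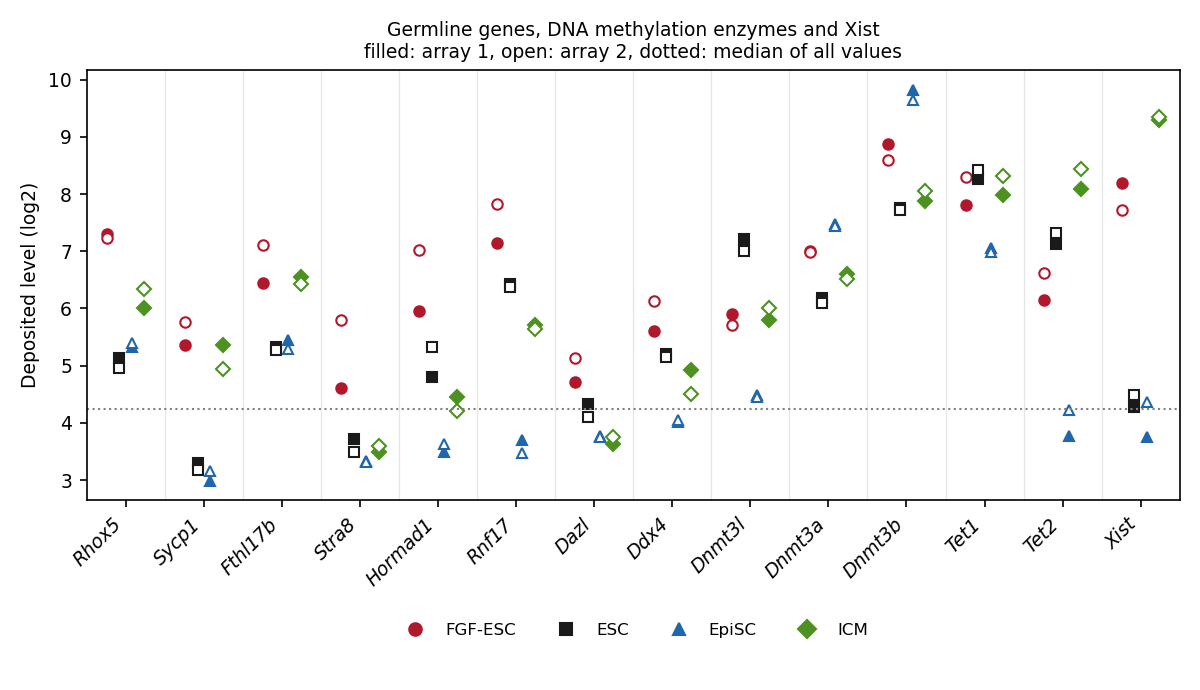
Log2 signal of named germline genes, Xist and genes of the methylation machinery on each array of FGF-ESC, ESC and EpiSC, one point per array. Rhox5 (7.30 and 7.24) and Sycp1 (5.36 and 5.76) lie above both other lines in FGF-ESC, and Dnmt3l lies between ESC and EpiSC.

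All genes that rose with array 2 the higher were then listed, a selection made after the values were seen. There were 56 among the 717, and 23 with a gap of at least 0.5, of which 5 were on the germline list and 0 on the fibroblast list. The germline list made up 8 of all 717 rises and 40 of the 13597 tested genes. Array 2 being the higher is how these genes were chosen and is no result. Fabp4, the fatty acid carrier of fat and endothelial cells, read 6.97 and 7.83 in FGF-ESC against 3.05 and 2.72 in ESC, with 3.07 and 2.86 in EpiSC, a rise of 4.52 ± 0.33 (adjusted p = 0.000174). Cyct, the cytochrome c of the testis, read 8.61 and 9.18, against 5.37 and 5.23 in ESC, with 4.0 and 5.10 in EpiSC, and rose by 3.59 ± 0.36 (adjusted p = 0.000758). Inner cell mass was also high for Cyct at 8.0 and 7.38. Fthl17e read 7.04 and 8.05 against 4.14 and 4.07 in ESC. Rec114, needed for the DNA breaks of meiosis, read 6.62 and 7.45 against 4.98 and 5.02 and rose by 2.04 ± 0.28 (adjusted p = 0.00318). Morc1, which represses transposons in male germ cells, rose by 1.5 ± 0.25, but not without ESC array 1 or 2 (adjusted p = 0.0733 and 0.0669).

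The DNA methylation machinery changed at single genes only, with 4 rises and 1 fall among 26 and a median of -0.14. Dnmt3l, the cofactor of the de novo methyltransferases, read 5.91 and 5.71 in FGF-ESC against 7.22 and 7.0 in ESC, with 4.49 and 4.45 in EpiSC, and fell by 1.3 ± 0.14 (adjusted p = 0.00107). It lay between the lines, 1.34 above EpiSC. Dnmt3b, a de novo enzyme, read 8.87 and 8.59 against 7.76 and 7.71, a difference of 0.999 ± 0.141 (adjusted p = 0.00358) that narrowly missed the fold minimum. Dnmt3a (0.86) was also below it. Uhrf2, a reader of hemimethylated DNA related to Uhrf1, rose by 1.17 ± 0.14, at 7.04 and 6.83 against 5.68 and 5.85. Mbd2, a reader of methylated DNA, read 6.96 on both FGF-ESC arrays and rose by 1.01 ± 0.11, a call that needs ESC array 2 (0.963 without it). The demethylases Tet1 (-0.29) and Tet2 (-0.85) and the maintenance factor Uhrf1 (-0.59) did not pass, although Tet2 was 2.38 above EpiSC. The machinery's rises numbered 2 without FGF-ESC array 1 and 1 without ESC array 2, and its falls 3 without FGF-ESC array 2.

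Imprinted genes, expressed from one parental copy, had a median of 0.03 and gave 5 rises and 2 falls among 46. Qpct fell by 1.23 ± 0.12 (adjusted p = 0.000658), at 4.42 and 4.58 against 5.71 and 5.75, and agreed between arrays. Nnat, a neuronal membrane proteolipid, read 8.33 and 8.50 in FGF-ESC against 7.07 and 6.90 in ESC, with 5.05 and 4.63 in EpiSC. Its rise of 1.43 was lost without ESC array 1 or 2 (adjusted p = 0.081 and 0.0976), and a second probe set gave 0.88. Plagl1, a zinc finger factor, read 6.61 and 6.17 against 8.31 and 8.41 and fell by 1.97 ± 0.40, a call also lost without either ESC array, and a second probe set gave -0.90. Meg3 (-0.08), Peg3 (0.65) and Mest (-0.71) did not pass. Without ESC array 1 or 2, 2 and 1 of the imprinted genes rose and 1 fell.

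Xist, the RNA that coats the inactive X chromosome, read 8.19 and 7.73 in FGF-ESC against 4.28 and 4.49 in ESC, with 3.75 and 4.37 in EpiSC and 9.29 and 9.34 in inner cell mass. Both FGF-ESC arrays were far above the other lines, with a rise of 3.57 ± 0.22 (adjusted p = 8.01e-05). The Y-linked gene Eif2s3y nevertheless read 6.05 and 6.38 in FGF-ESC and 5.18 and 5.42 in ESC, and Uty gave a difference of -0.26, neither passing. Eif2s3y did pass without FGF-ESC array 1 (1.07, adjusted p = 0.0031) and without ESC array 2 (1.03, adjusted p = 0.036). Srsy, a multicopy Y-linked gene chosen after its values were seen, read 5.36 and 6.18 against 7.76 and 7.53 and fell by 1.88 ± 0.24 (adjusted p = 0.00234).

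Among precursors of microRNAs, both tested members of an X-linked cluster rose. The cluster was picked because they rose, so their rise is no separate result about the cluster. The array reads RNA at the hairpin locus, so a primary transcript and a precursor are not distinguished. Of 162 precursors tested, 3 rose, a smaller share than the 5.27% of all tested genes. A further 2 fell, against 0.934% of all tested genes. The median of the precursors was -0.16. That median was -0.06 without FGF-ESC array 1 and also -0.06 with no filter on dim genes. The X-linked cluster is a relative of the Mir17 cluster on chromosome 14 and carries the same seed families, and the Mir302 cluster on chromosome 3 marks primed pluripotent cells. Mature sequences from RefSeq are shown for the members the results turn on, with the seed, bases 2 to 8, in capitals, to show which seeds are shared.
miR-363-3p: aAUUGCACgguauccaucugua
miR-367-3p: aAUUGCACuuuagcaaugguga
miR-18b-5p: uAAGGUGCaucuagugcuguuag
miR-18a-5p: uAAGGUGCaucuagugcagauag
miR-17-5p: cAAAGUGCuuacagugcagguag
miR-302b-3p: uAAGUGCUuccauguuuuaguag
The seed AUUGCAC is common to miR-363-3p of the X-linked cluster and miR-367-3p of the Mir302 cluster, and AAGGUGC to the paralogous pair miR-18b-5p and miR-18a-5p.

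Mir363 (chrX:52741693-52741767, minus strand, GRCm38.p6) read 6.07 and 6.94 in FGF-ESC against 3.89 and 3.73 in ESC, with 6.33 and 5.73 in EpiSC. It rose by 2.70 ± 0.29 (adjusted p = 0.000958) and differed from EpiSC by 0.48 (adjusted p = 0.29). Mir18b (chrX:52742331-52742413, minus strand) read 5.31 and 5.64, against 3.66 and 3.60 in ESC, with 5.49 and 4.75 in EpiSC, a rise of 1.84 ± 0.23 (adjusted p = 0.00202). In both, FGF-ESC and EpiSC overlapped and ESC stood below, and array 2 was the higher. Mir92-2, Mir19b-2 and Mir20b of the same cluster were too dim to test, with differences from ESC of 0.45, 0.91 and 0.27. Mir17 (chr14:115043671-115043754, plus strand) read 6.04 and 6.75 against 4.98 and 5.33 and rose by 1.24 ± 0.23 (adjusted p = 0.0102), a call lost without FGF-ESC array 2 (0.884) or ESC array 1 (adjusted p = 0.104). Its neighbours Mir18 and Mir20a each lay 0.73 above ESC and did not pass.

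The Mir302 cluster, which shares a seed with Mir363, was dim in both FGF-ESC and ESC. Its 5 precursors read under 4.24, the level used to filter dim genes, on every array of these lines. They reached the test through EpiSC. Their differences from ESC were -0.22 to 0.18 and none passed (limma), but signals this dim cannot show whether FGF-ESC and ESC differ. Mir302a read 2.39 and 2.53 in FGF-ESC against 2.71 and 2.65 in ESC, with 5.69 and 5.73 in EpiSC, a difference from EpiSC of -3.25 (adjusted p = 4.62e-05). Mir367 was likewise lower than EpiSC (-3.07, adjusted p = 2.17e-05), as were Mir302b, Mir302c and Mir302d (-1.51, -2.63 and -1.28). Since these precursors passed the filter through EpiSC, that direction follows in part from how they entered the test. The 2 falls were Mir5124a (-1.24 ± 0.14, adjusted p = 0.00151) and Mir680-1 (-1.16 ± 0.20), the second lost without ESC array 1 (adjusted p = 0.0826). Without FGF-ESC array 2, 11 precursors fell and 2 rose.

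**Figure D5:**
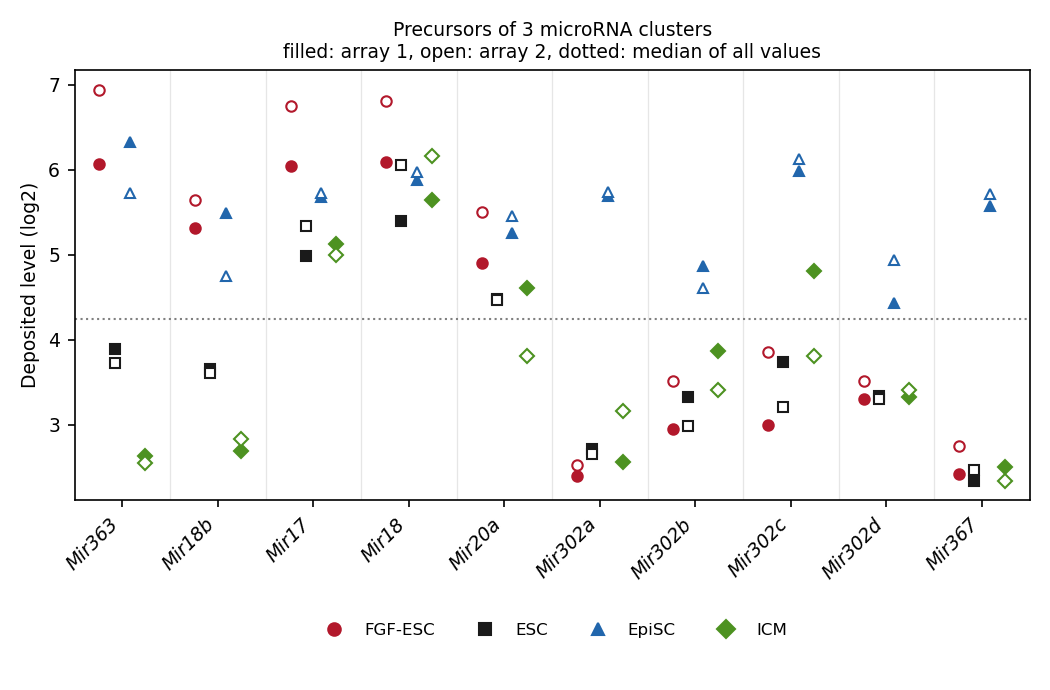
Log2 signal of microRNA precursors of the X-linked, Mir17 and Mir302 clusters on each array of FGF-ESC, ESC and EpiSC, one point per array. Mir363 and Mir18b are high in FGF-ESC and EpiSC and low in ESC, whereas the 5 Mir302 cluster precursors are highest in EpiSC. Inner cell mass reads 4.81 and 3.81 for Mir302c.

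Genes of growth and division shifted by small amounts. Of 60 DNA replication and cell cycle genes, 0 rose and 0 fell (limma; 0 higher and 35 lower at an unadjusted p under 0.05). The median was -0.41 (-0.57 and -0.26) against -0.06 over all tested genes and -0.03 in EpiSC, and 1 gene fell without FGF-ESC array 2. Array 1 was the higher in 7 of 60. Mcm5, a subunit of the replicative helicase, read 7.78 and 8.15 against 8.88 and 8.77, a difference of -0.85 ± 0.14 (adjusted p = 0.0077) that did not reach the fold minimum. Mad2l1 (-0.76), of the spindle checkpoint, and Cdc6 (-0.73), which loads the helicase, behaved alike. Array 2 was also the higher for 55 of 74 respiratory chain subunits, against 7265 of all 13597 tested genes. Array 1 had the higher fibroblast markers, and a link to the cell cycle genes was not tested.

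Canonical histones, made in S phase, had a median of -0.68 (-0.79 and -0.43), and 2 of 15 fell. H1f5, a linker histone, read 8.28 and 8.78 in FGF-ESC against 10.24 and 9.86 in ESC, with 10.20 and 10.03 in EpiSC, and fell by 1.52 ± 0.23 (adjusted p = 0.00454), a call lost without ESC array 1 (adjusted p = 0.0601). H2ac21 fell by 1.71, but not without ESC array 1 (adjusted p = 0.0852), and its other probe set gave -0.56. The falls numbered 5 without FGF-ESC array 2 and 0 without ESC array 1.

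Zinc finger genes with symbols Zfp600 to Zfp999 were taken as a KRAB-type set, a type of which many silence transposons. The set was picked by symbol and not by domain. It may hold genes without a KRAB domain and leaves out those outside the range. Its median was -0.20, with 5 of 127 falling and 0 rising (limma, with 4 higher and 41 lower at an unadjusted p under 0.05). Zfp936 read 5.90 and 5.83 in FGF-ESC against 7.65 and 7.50 in ESC, with 3.92 and 4.14 in EpiSC, and fell by 1.71 ± 0.14 (adjusted p = 0.000321), and the arrays agreed. Only 1 of the family fell without FGF-ESC array 1 and 2 without ESC array 2, as against 11 without FGF-ESC array 2. Small nucleolar RNAs, which guide modification of other RNAs, gave 2 rises and 2 falls of 62. Snord118, the U8 RNA needed to mature the large ribosomal subunit, read 7.52 and 7.15 in FGF-ESC against 4.82 and 4.66 in ESC, with 7.51 and 7.53 in EpiSC, a rise of 2.60 ± 0.18 (adjusted p = 0.000115). EpiSC read close to FGF-ESC for Snord118. Of these RNAs 5 fell without FGF-ESC array 2, 1 without FGF-ESC array 1, and 0 without ESC array 1 or ESC array 2.

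The large housekeeping complexes stayed near the median of all genes. Cytosolic ribosomal proteins gave 1 rise of 63 and a median of 0.00 to 2 decimals. Mitochondrial ribosomal proteins had a median of -0.06, with 0 of 70 called (limma; 1 higher and 7 lower at an unadjusted p under 0.05). Respiratory chain subunits had a median of -0.08, with 0 of 74 called (limma; 1 higher and 5 lower at an unadjusted p under 0.05). Glycolysis and lactate genes gave 1 rise and 1 fall of 29. Pdk4, the kinase that shuts pyruvate out of the mitochondrial cycle, read 6.84 and 6.46 against 4.64 and 4.78 in ESC, with 3.78 and 4.20 in EpiSC, a rise of 1.94 ± 0.18 (adjusted p = 0.00051). The glucose transporter Slc2a3 fell by 1.07, a call lost without FGF-ESC array 1 and without either ESC array. Without FGF-ESC array 2 the glycolysis list gave 2 rises and 2 falls.

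Lysosomal genes and cathepsins had 7 rises and 1 fall of 33 and a median of 0.51 (0.82 and 0.23), against -0.41 in EpiSC, and 12 were higher in FGF-ESC than in EpiSC. Ctsl, the protease cathepsin L, read 10.63 and 10.67 in FGF-ESC against 9.36 and 9.40 in ESC, a rise of 1.27 ± 0.12 (adjusted p = 0.000653) that was the same on both arrays. Scarb2, a lysosomal membrane receptor, read 8.16 and 7.91 against 6.22 and 6.25 and rose by 1.80 ± 0.13. Ctsk, a collagen-cleaving cathepsin, rose by 4.45 ± 0.45 and was less even, at 8.66 and 6.89 against 3.27 and 3.37. The fall was of Cd68, a macrophage marker, and was lost without any single array. Without FGF-ESC array 2, 11 of the 33 rose, and 4 without FGF-ESC array 1 or ESC array 2.

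S100 and annexin genes, which encode calcium-binding proteins, gave 8 rises of 17, 7 on both arrays, with a median of 0.63 (0.85 and 0.41). S100a6 read 11.21 and 11.09 in FGF-ESC and 8.05 and 7.85 in ESC, a rise of 3.20 ± 0.21. S100a4, itself a fibroblast marker, rose by 5.46 ± 0.33. Retinoid and fatty acid binding genes gave 6 rises of 24. Crabp1, which binds retinoic acid in the cytoplasm, read 10.72 and 10.45 in FGF-ESC against 6.99 and 6.76 in ESC, with 8.25 and 8.61 in EpiSC, a rise of 3.71 ± 0.26 (adjusted p = 0.000153). Its paralogue Crabp2, which carries retinoic acid to the nucleus, read 8.40 and 8.46 against 6.07 and 6.26, a rise of 2.26 ± 0.17. EpiSC read close to it for Crabp2, at 8.76 and 8.44. Without ESC array 1 or 2, 3 of the 24 binding genes rose.

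Surface and matrix genes changed in both directions. Efnb2, a ligand of Eph receptors, read 7.39 and 6.54 in FGF-ESC against 3.67 and 3.46 in ESC, with 7.73 and 7.95 in EpiSC, a rise of 3.40 ± 0.25. Epha4, an Eph receptor, read 5.10 and 5.04 against 7.06 and 7.19 and fell by 2.06 ± 0.12 (adjusted p = 4.92e-05), and the arrays agreed. Among laminins, Lama1 of the embryonic basement membrane read 4.80 and 5.05 against 6.35 on both ESC arrays and fell by 1.42 ± 0.14, while Lamb1 rose by 2.52 ± 0.28. Over 36 ephrins, semaphorins and receptors 4 rose and 1 fell, and over 29 integrins and laminins 3 rose and 1 fell. The rises numbered 8 and 7 in these lists without FGF-ESC array 2, and 1 and 1 without ESC array 1 or ESC array 2.

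The 127 falls had medians of -1.42 on array 1 and -1.15 on array 2, and array 1 was above array 2 in only 29 of them. Calcoco2, an autophagy receptor, read 5.07 and 5.32 in FGF-ESC against 7.83 and 8.04 in ESC, with 3.61 and 3.59 in EpiSC and 10.70 and 10.95 in inner cell mass, and fell by 2.74 ± 0.15 (adjusted p = 3.71e-05). The uncharacterised gene 2410137M14Rik read 4.0 and 3.98 against 6.66 and 6.42 and fell by 2.55 ± 0.13. Epp13 read 4.98 and 4.65 against 7.28 and 7.26 and fell by 2.45. Ubd, a ubiquitin-like modifier that interferon can raise elsewhere, fell by 1.76 ± 0.13 (adjusted p = 0.00021), at 6.14 and 6.29 against 8.02 and 7.93. It thus ran against most interferon-stimulated genes. Tead4, a trophectoderm factor, read 5.94 and 6.30 against 7.90 and 7.84 and fell by 1.75 ± 0.18. Nqo1, an antioxidant reductase, read 6.99 and 7.11 against 8.30 and 8.25 and fell by 1.22 ± 0.15.

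A few large rises need their other probe sets. Ddx39b, an RNA helicase, read 10.18 and 9.99 on its brightest probe set against 6.73 and 6.80 in ESC, a rise of 3.32 ± 0.12, but both of its other probe sets gave -0.20. Dsg2, a desmosomal cadherin, fell by 1.95 on its brightest probe set and gave a difference of -0.61 on another.

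Markers of cell types other than fibroblasts were largely flat. Of 12 neural markers 0 were called (limma; 0 higher and 3 lower at an unadjusted p under 0.05), and 1 rose and 1 fell without FGF-ESC array 2. Of 12 tested Hox cluster genes 1 fell, Hoxc12, and the 38 on the array averaged 3.97 and 3.82 in FGF-ESC against 3.83 and 3.82 in ESC. The 20 macrophage and blood markers on the array averaged 4.12 and 4.17 in FGF-ESC against 4.30 and 4.25 in ESC. Of the 9 tested 0 rose and 1 fell, Cd68 (limma, with 0 higher and 3 lower at an unadjusted p under 0.05). Trophectoderm markers averaged 4.27 and 4.28 against 4.48 and 4.49, the single change being the fall of Tead4. Of 15 primitive endoderm markers 3 rose, Pdgfra, Dab2 and Col4a1, and 1 fell, Lama1, against rises in 5.27% of all tested genes. Pdgfra is also a fibroblast marker, and Dab2 and Col4a1 lost their calls without ESC array 1 or 2. Acta2 and Cnn1 were the 2 rises of 13 endothelial and smooth muscle markers and were also lost without ESC array 1 or 2. Among skeletal muscle, cartilage and fat markers only Fabp4 rose of 15. Fabp4 was therefore not accompanied by the rest of that list.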

How the data were processed

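RNA of 8 samples, 2 for each of the 3 cultured lines and 2 of inner cell mass, was amplified with NuGEN Ovation Pico WTA V2 and hybridised to Affymetrix Mouse Gene 2.1 arrays, per the labels' protocols. The values the authors deposited are on the log2 scale. The submitters' processing notes name Expression Console 1.3.1 as the software, and how probes were summarised is not given in the sources used here. Array medians were 4.16 to 4.28. The number of arrays limits the precision.

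Of 41345 probe sets, 23521 name 1 gene, 1814 name several and 16010 none; only the first kind was used, with the brightest probe set of each of 22180 genes. Genes that exceeded 4.24 (the overall median value) on 2 or more arrays were tested in limma 3.58.1 (R 4.3.3), one mean per group over all 8 arrays and 4 residual degrees of freedom, with Benjamini-Hochberg adjustment. The fit was tested on simulated data. Lists are described by counts and medians without a list test.

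Genes are named by smallest adjusted p in each list, as large rises and falls, or from a fixed panel. The members and lists were chosen with earlier results of these data known. Promoters and microRNAs come from RefSeq (GRCm38.p6), and 120 of the 162 tested precursors had a hairpin entry. Alternatives varied the arrays, filter, probe set rule, normalization, variance model, fold minimum and replicate block.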

Additional observations from a re-analysis of the deposited data

How the results depend on the processing

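All 240 named genes that passed kept their direction under every alternative run. Fitting the 4 arrays of FGF-ESC and ESC alone gave 526 calls with 424 higher and ended the call of 49 named genes. With no fold minimum 2087 genes were called, 1256 higher and 831 lower. Leaving out single arrays gave 374 to 1287 calls, 309 to 1046 higher and 65 to 241 lower, and 335 to 359 calls on both arrays. It ended 91 named calls without ESC array 1, 86 without ESC array 2, 47 without FGF-ESC array 1 and 5 without FGF-ESC array 2. The cause was not tested. The residual SD was 0.279 in FGF-ESC and 0.124 in ESC. The replicate block gave 828 calls (701 higher, 127 lower) and ended 4 named calls; same-numbered arrays did not deviate together (r from -0.0864 to 0.0421), so the numbers do not pair them.

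List medians moved as follows, and the cause was not tested. A filter at 5 gave 0.454 for primed factors, 0.964 for MHC class I and 1.89 for chemokines. It also gave 0.205 for retinoid binding genes, 1.09 for S100 genes and -0.31 for the Zfp600 to Zfp999 genes. No filter, which adds dim genes, gave -0.12 for WNT targets, 0.0461 for BMP, -0.0143 for DNA methylation, 0.0003 for imprinted genes, 0.21 for chemokines, 0.0998 for complement, 0.0677 for retinoid binding genes, 0.121 for S100 genes, -0.18 for histones and 0.561 for GTPases. Averaging probe sets gave -0.12 for WNT targets, 0.0561 for imprinted genes and 0.964 for MHC class I. Quantile normalization gave 0.411 for primed factors, 0.0286 for WNT targets, whose sign turned, and 0.224 for retinoid binding genes. Leaving out single arrays gave 0.4495 to 0.547 for primed factors, -0.0722 to -0.0008 for WNT targets, -0.0077 to 0.073 for imprinted genes, -0.319 to -0.132 for small nucleolar RNAs, 0.759 to 1.44 for ERK genes and 0.699 to 0.991 for MHC class I. With signals near the floor of 4.24, differences of dim genes are compressed.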
